A study of Aedes aegypti with 20 samples.

Results

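Dopamine is both a transmitter in the insect nervous system and a raw material for cuticle. The 4 genes described here, of 19804 gene IDs in the deposited table, sit along that route in the yellow fever mosquito Aedes aegypti and were chosen by ID. They are AAEL014238 (dopa decarboxylase, Ddc), AAEL005793 (ebony), AAEL006830 (yellow) and AAEL005834 (the dopamine receptor DOP2). The table pairs no ID with a name, so these are the names under which the IDs are known, and the genes have 7 transcripts of 34477 in the table. RNA was sequenced from pedicels, the antennal segment that houses the hearing organ (Johnston's organ), and from heads. The sample titles say head, while the column headers of the same libraries in the table say brain. These libraries are called heads here. All animals were of the Liverpool strain. Males were virgin and females had taken no blood. Both were entrained over 2 days and flash-frozen at zeitgeber time 12. Male pedicels, female pedicels, male heads and female heads each gave 5 libraries, 20 in all, from homogenised tissue pooled over animals of unstated age and number. Whether replicate libraries hold different animals, or a pedicel and a head library the same ones, is not stated either, and a p-value here therefore speaks of the scatter among libraries, which may be technical.

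In insects, tyrosine is hydroxylated to dopa, and dopa decarboxylase turns dopa into dopamine. The same enzyme also makes serotonin. Ebony, first described in Drosophila, joins dopamine to beta-alanine. The product hardens and tans cuticle, and in the fly's optic lobe ebony in glia also inactivates histamine, the photoreceptor transmitter. Yellow, a secreted protein also named from a Drosophila mutant, is needed for black melanin in the cuticle. DOP2 is a G protein-coupled receptor of the D1-like class, through which dopamine acts on cells.

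Estimated counts per library summed to between 5060010 and 9404311, and levels are given in CPM, each count relative to its library's size after TMM scaling, a correction for composition. Pedicel libraries were less uniform than head libraries. Their TMM factors ran from 0.49 to 1.31, against 1.11 to 1.21 in heads. Identical copies, meaning transcripts that match one under a different gene ID value for value (to 3 decimals), held 2.17% to 35.2% of the counts in pedicels and 2.51% to 3.72% in heads, and none of the 7 transcripts described here was among them. The transcripts of 50 genes abundant in every head, picked for a low value in at least 1 pedicel, stood at a median of 4.34% to 36.6% of the mean head level in male pedicels and at 34.1% to 67.8% in female pedicels. The pick used these same libraries, so the gap between the sexes can in part be its product. The tissues were not checked against named cell markers, since no ID in the table is paired with a name. In these homogenised samples, fewer cells of a type and less RNA per cell cannot be told apart.

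Ddc, the enzyme that makes dopamine, was lowest in male pedicels and lay close together in the other 3 groups. Male pedicels 1 to 5 held 32.6, 36.6, 28.9, 24.3 and 31.5 CPM of it, and female pedicels 47.5, 38.3, 38.7, 35.9 and 40.6 CPM. Male heads held 35.1, 46.3, 40.3, 40.1 and 38.4 CPM, and female heads 45.8, 50.2, 37.4, 41.2 and 43.9 CPM. Male pedicel 2, the highest of its group, lay above female pedicel 4 and male head 1, and no other male pedicel reached the lowest female pedicel or male head. On average the male pedicel held 30.8 ± 4.57 CPM and the female pedicel 40.2 ± 4.41 CPM, while the male head held 40.1 ± 4.07 CPM and the female head 43.7 ± 4.81 CPM (SD, n = 5 each). These rest on 76 to 437 counts per library.

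In the pedicel, Ddc was the 1 gene of the 3 tested that was called between the sexes, where 39.5% of the 11381 genes tested were. It was 1.30-fold lower in males (log2 fold -0.38, SE 0.11, edgeR adjusted p = 0.0128). The call was lost in a fit of pedicels alone (adjusted p = 0.054), without male pedicel 4 (log2 fold -0.30, adjusted p = 0.062) and without female pedicel 1 (log2 fold -0.30, adjusted p = 0.0729). With library totals in place of TMM, which moves the median of all genes in this comparison by 0.36 on the log2 scale, its log2 fold was 0.02, a move of about the size of that shift. The 4 pedicels that held 10% or less of identical copies, a cut that female pedicel 2 just missed at 10.015%, are male 1, 2 and 5 and female 1. They gave -0.46 (adjusted p = 0.137), with 1 female library that is assumed to vary like the other groups, and the other 6 gave -0.56 (adjusted p = 0.00716). The head transcripts described above were lower in 4 of the 5 male pedicels than in any female pedicel, a gap that their choice by low pedicel values can widen. Their part in the difference of Ddc was not tested.

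Against the head, Ddc was 1.29-fold lower in the male pedicel (log2 fold -0.37, SE 0.11, edgeR adjusted p = 0.0101). It was 1 of the 3 tested genes, all of which were called in this comparison, as were 51% of all genes tested. Library totals alone gave a log2 fold of -0.53 with more spread (adjusted p = 0.139), and the pedicels with 10% or less of identical copies gave -0.27 (adjusted p = 0.0981). In females the difference did not pass the test (log2 fold -0.12, 95% interval -0.34 to 0.10, adjusted p = 0.434). Nor did that between the sexes in the head (log2 fold -0.13, 95% interval -0.35 to 0.10, adjusted p = 0.565), and the interaction of sex and tissue was -0.25 (SE 0.16, adjusted p = 0.326). The male pedicel's lower level is not shown to be limited to that sex.

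**Figure D1:**
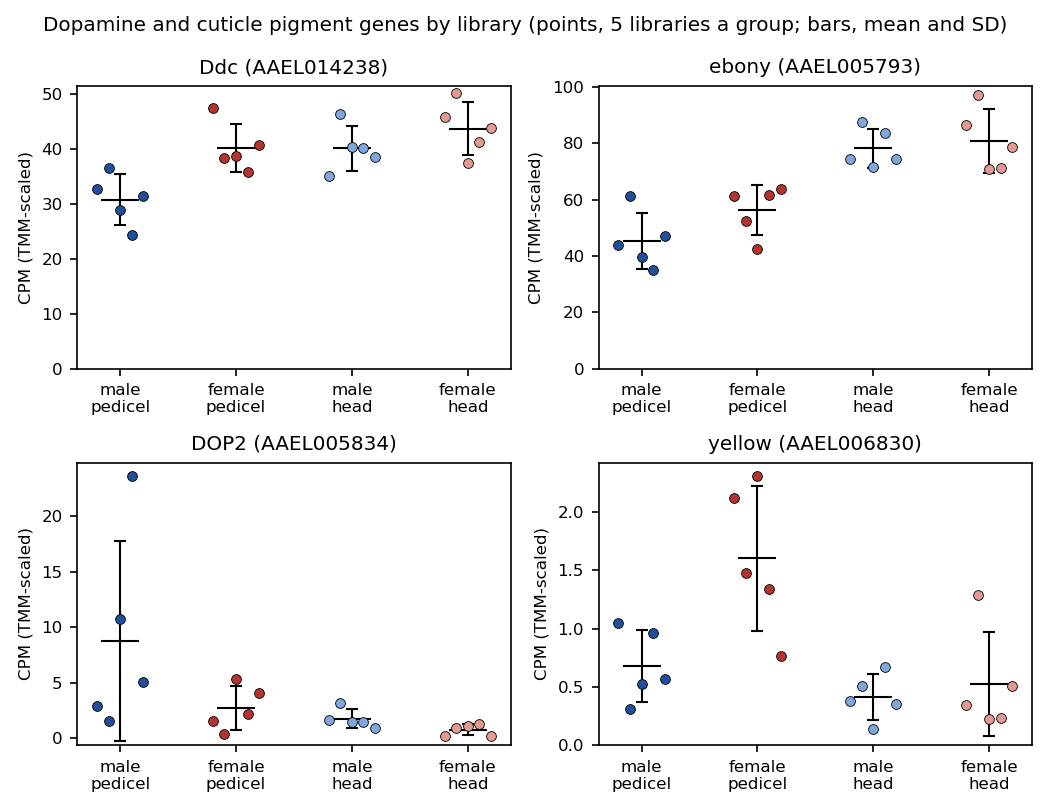
Level of each gene in CPM (TMM-scaled, linear axes) in every library, by sex and tissue. Points are libraries in order of replicate number, and the bars give the mean and SD of 5. All pedicels lie below all heads for ebony, DOP2 is highest in male pedicels 3 and 4, and yellow reaches at most 2.31 CPM.

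Ebony, which uses up dopamine, was lower in pedicels than in heads in both sexes, and it was the gene of the set with the clearest separation of the tissues. Male pedicels 1 to 5 held 43.9, 61.3, 39.5, 35.1 and 46.9 CPM and female pedicels 61.3, 52.5, 42.4, 61.7 and 63.9 CPM. Male heads held 74.5, 87.6, 71.6, 83.5 and 74.2 CPM and female heads 86.6, 97.2, 70.7, 71.1 and 78.6 CPM. Every pedicel of a sex lay below every head of that sex, which was also true of 17.7% of genes in males and 13.8% in females. The means were 45.4 ± 9.98 CPM in male and 56.3 ± 8.96 in female pedicels, against 78.3 ± 6.9 and 80.8 ± 11.2 CPM in heads (SD, n = 5 each).

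In males ebony was 1.72-fold lower in the pedicel than in the head (log2 fold -0.78, SE 0.14, edgeR adjusted p = 0.000145). In females it was 1.43-fold lower (log2 fold -0.52, SE 0.14, adjusted p = 0.00813), the 1 call among the 3 tested genes in a comparison where 35.4% of all genes were called. The male call held under all 32 alternatives tried. The female call was lost with only female pedicel 1 left in the group, the single female library with 10% or less of identical copies (log2 fold -0.44, adjusted p = 0.275). With library totals the folds were larger (-0.93 in males and -1.02 in females). The 2 folds were not shown to differ, the interaction being -0.26 (SE 0.20, adjusted p = 0.436).

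Between the sexes ebony did not pass the test in either tissue. In the pedicel the log2 fold, male over female, was -0.31 (95% interval -0.59 to -0.03, edgeR adjusted p = 0.0952), and in the head it was -0.05 (95% interval -0.32 to 0.23, adjusted p = 0.889). The pedicel value is sensitive to single libraries. Without male pedicel 2, the library with the most head transcripts of its group, it became -0.44 (adjusted p = 0.0103), and without female pedicel 3 it became -0.39 (adjusted p = 0.0336). Library totals, with their shift of 0.36 in all genes, gave 0.12 (adjusted p = 0.781). Within the 6 pedicels with over 10% of identical copies the fold was -0.60 (adjusted p = 0.015). The other 4 gave -0.23 (adjusted p = 0.541), again with a single female library, and the subsets were not tested against each other.

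**Figure D2:**
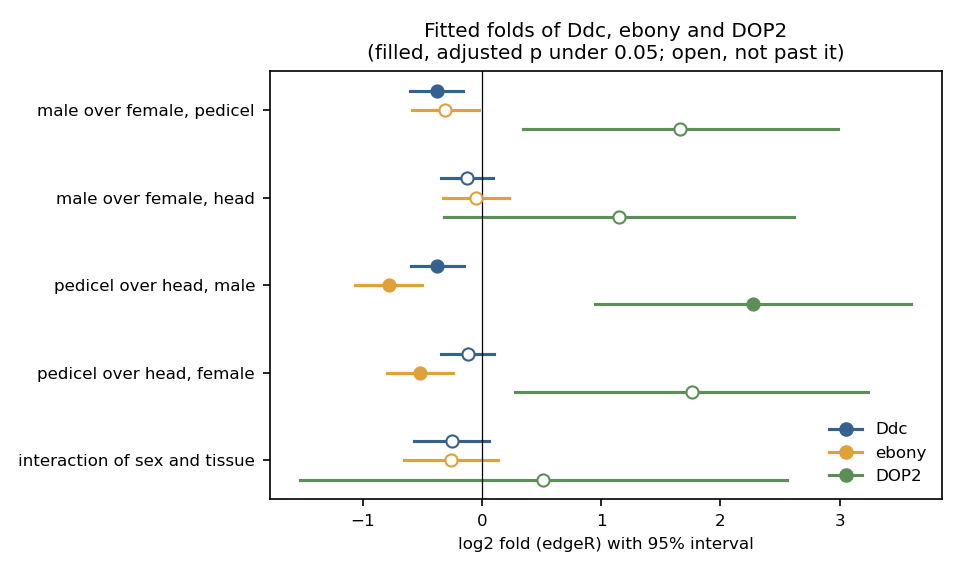
Fitted log2 folds of Ddc, ebony and DOP2 in the 5 contrasts, with 95% intervals taken as 1.96 standard errors. The intervals are not adjusted for the number of genes, so that of ebony between pedicels excludes 0 without a call. Ebony lies below 0 in both comparisons of pedicel with head. The folds of DOP2 lie above 0, with wide intervals that take in 0 between heads and in the interaction. No interaction passed the test.

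The ratio of Ddc to ebony counts within a library needs no scaling between libraries, although the lengths of the genes make its absolute size meaningless. It ran from 0.597 to 0.743 in male pedicels and from 0.472 to 0.563 in male heads, with no overlap. In females it ran from 0.581 to 0.913 in pedicels and from 0.516 to 0.580 in heads, again without overlap but with almost no gap. On the log2 scale the means were -0.55 ± 0.13 and -0.48 ± 0.25 in male and female pedicels, and -0.97 ± 0.10 and -0.88 ± 0.07 in male and female heads (SD, n = 5 each). The sexes overlapped in both tissues. Relative to ebony, Ddc thus stood higher in pedicels than in heads, although its own CPM did not. The share of other gene pairs that separate the tissues in this way was not computed. After removal of group means, the log2 levels of Ddc and ebony correlated over the 20 libraries with a Pearson r of 0.73, a description only, since both values of a library share its scaling.

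**Figure D3:**
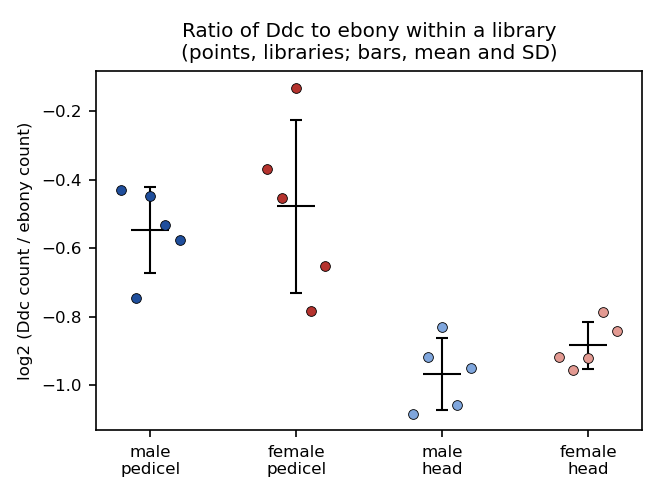
Log2 ratio of Ddc to ebony counts within each library, by group, with mean and SD. Pedicel libraries run from -0.78 to -0.13 and head libraries from -1.08 to -0.79.

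The table lists transcripts separately. In this estimated split of the counts, ebony's lower mean in the pedicel lay in 1 of its 2 transcripts, although the test of transcript usage given below did not call ebony. AAEL005793-RB averaged 62.4 ± 6.23 CPM in male heads and 60.2 ± 10.9 in female heads, against 14.8 ± 8.41 in male pedicels and 28.4 ± 12 in female pedicels (SD, n = 5 each). The highest pedicel, female pedicel 5 at 45.7 CPM, lay below the lowest head, female head 1 at 48.4 CPM. Within a sex, all pedicels lay below all heads for 12% of the 19462 transcripts tested in males and 7.61% in females. AAEL005793-RA did not follow it. It averaged 30.6 ± 5.09 and 28.0 ± 9.11 CPM in male and female pedicels and 15.8 ± 8.77 and 20.6 ± 10.8 CPM in male and female heads, and the groups overlapped.

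In a fit of 19462 transcripts, added after the transcript values were seen, in males AAEL005793-RB was 4.13-fold lower in pedicels than in heads (log2 fold -2.05, SE 0.34, edgeR adjusted p = 0.000248), where 25% of transcripts were called. In females it was 2.16-fold lower (log2 fold -1.11, SE 0.33, adjusted p = 0.033, with 12.3% of transcripts called). The female call was lost when any of 7 libraries was left out (female heads 2 to 5 and female pedicels 2 to 4), with adjusted p-values up to 0.0897. AAEL005793-RA did not pass in either sex (log2 fold 0.95, adjusted p = 0.0704 in males, and 0.41, adjusted p = 0.564 in females), although it did in males without male head 2 (1.36, adjusted p = 0.00878). Between male and female pedicels AAEL005793-RB was not called (log2 fold -0.91, SE 0.33, adjusted p = 0.0758). Leaving out male pedicel 2 gave a call, at -1.35 (adjusted p = 0.00172), and its interaction moved from -0.94 (adjusted p = 0.363) to -1.38 (adjusted p = 0.0282).

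As a share of all ebony counts, AAEL005793-RB held 17.8%, 46.8%, 22.1%, 36.6% and 33.7% in male pedicels 1 to 5 and 58.5%, 32.6%, 49.4%, 36.0% and 71.5% in female pedicels. It held 88.5%, 64.6%, 81.3%, 85.8% and 80.7% in male heads and 55.9%, 79.8%, 86.8%, 77.8% and 74.2% in female heads. In males the tissues did not overlap, and in females pedicels 1 and 5 reached into the range of the heads. How often the shares of other transcripts separate the tissues was not counted. The highest shares in a pedicel of each sex fell in male pedicel 2, where head transcripts stood at 36.6% of the head level, and in female pedicel 5, where they stood at 67.8%. The part of head RNA in these shares was not tested. A test of transcript usage over 3387 genes with at least 2 transcripts did not call ebony between tissues, with an adjusted p of 0.389 in males and 1 in females (edgeR diffSpliceDGE, Simes). It called 2.48% of genes in males and 0.709% in females. Between the sexes its adjusted p was 1 in both tissues, where 0.59% of genes in pedicels and 0.266% in heads were called.

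Ddc counts were spread over 3 transcripts, and the male pedicel held little of the 1 with the highest mean share in heads. AAEL014238-RC took 69.1 ± 18.4% of Ddc counts in male heads and 54.8 ± 11.8% in female heads, against 9.92 ± 15.7% in male pedicels and 33.6 ± 26.2% in female pedicels (SD, n = 5 each). Its share was 5.4%, 37.6%, 0%, 0% and 6.65% in male pedicels 1 to 5, where the value of 37.6% belonged to male pedicel 2. Female pedicels held 17.3%, 12.3%, 33.0%, 78.3% and 27.1%. The highest of these fell in female pedicel 4, where head transcripts stood at 59.2% of the head level. They stood at 67.7% and 67.8% in female pedicels 1 and 5. What part head RNA has in the shares of AAEL014238-RC was not tested. AAEL014238-RD held most Ddc counts in every male pedicel, from 62.4% to 100%, and 21.7% to 72.9% in female pedicels. In heads it averaged 29.6 ± 18.3% in males and 43.2 ± 11.8% in females. In female head 1 it exceeded AAEL014238-RC, at 54.9% against 45.1%.

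Tested singly, AAEL014238-RC in males was 7.11-fold lower in pedicels than in heads (log2 fold -2.83, SE 0.92, edgeR adjusted p = 0.031). The call was lost in a fit of males alone (log2 fold -2.85, adjusted p = 0.108) and with library totals (-2.84, adjusted p = 0.0501). It was also lost without male head 1 or male pedicel 1 or 5, with log2 folds of -2.64 to -2.73 and adjusted p-values up to 0.0735, so the p moved more than the fold. In females it was not called (log2 fold -0.93, SE 0.86, adjusted p = 0.583). Between male and female pedicels its log2 fold was -1.75 (SE 0.89, adjusted p = 0.226), where 14.2% of transcripts were called, and it became -3.58 (adjusted p = 0.00402) without male pedicel 2. Its interaction, not called with all libraries (-1.89, adjusted p = 0.541), was then -3.73 (adjusted p = 0.032). AAEL014238-RE had under 1 estimated count in 4 of 5 libraries of each head group and in 2 of 5 of each pedicel group, and reached 17.6 CPM in female pedicel 2. Usage of Ddc transcripts was not called between the tissues (adjusted p = 0.504 in males and 1 in females) or between the sexes (adjusted p = 1 in both tissues). In male head 1 all Ddc counts lay on AAEL014238-RC.

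**Figure D4:**
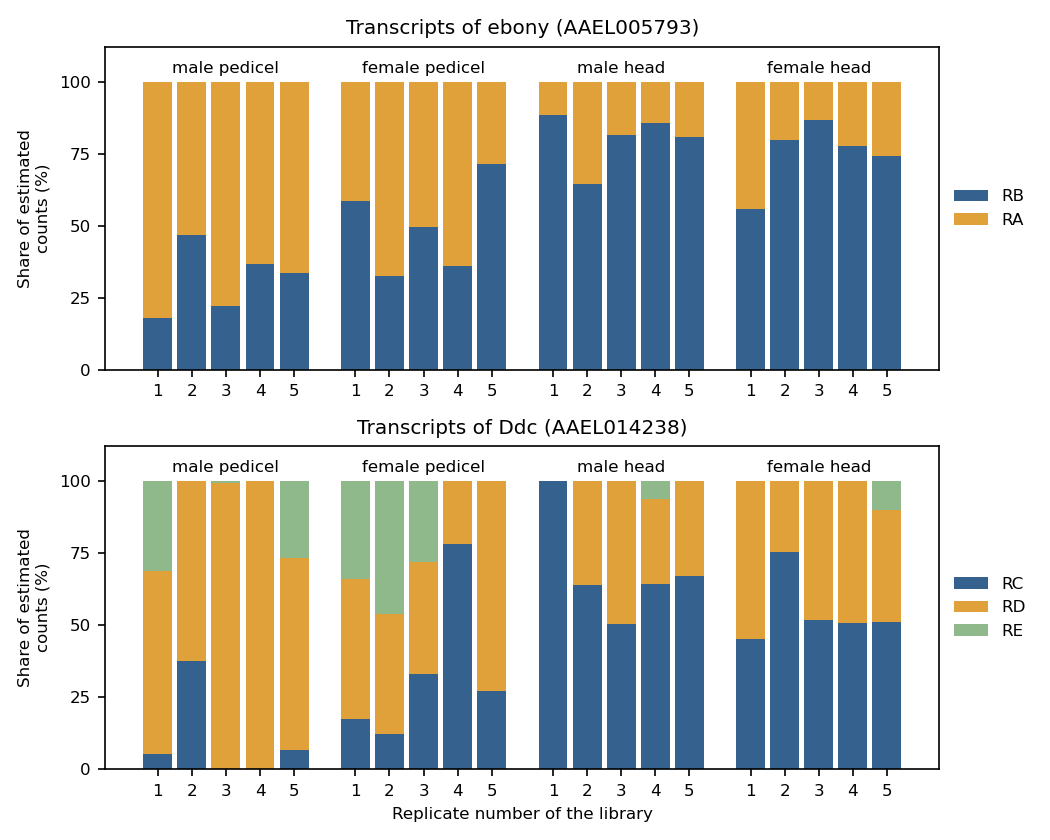
Share of each gene's estimated counts by transcript in all 20 libraries, ebony above and Ddc below, with replicate numbers on the horizontal axis. AAEL005793-RB holds 17.8% to 71.5% in pedicels and 55.9% to 88.5% in heads, and AAEL014238-RC is at 0% in male pedicels 3 and 4.

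Yellow, the melanin gene, was scarcely detected in any group. Its estimated counts were 9, 3, 3, 3 and 5 in male pedicels and 15, 8, 10, 6 and 3 in female pedicels. They were 3, 3, 1, 5 and 4 in male heads and 3, 10, 2, 2 and 4 in female heads. These totals, of 23, 42, 16 and 21 counts per group, were too few for the filter that the other 3 genes passed, so yellow is not among the genes tested. Pedicels averaged 0.681 ± 0.311 CPM in males and 1.60 ± 0.624 CPM in females, and heads 0.409 ± 0.197 and 0.521 ± 0.446 CPM (SD, n = 5 each).

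In the fit without a filter on low counts, yellow was higher in female pedicels than in heads of that sex (log2 fold 1.58, SE 0.52, edgeR adjusted p = 0.0338), where 21.9% of 17963 genes were called. Female head 2, at 1.29 CPM, overlapped with female pedicel 5, at 0.766 CPM. Without that head library the log2 fold was 2.21 (adjusted p = 0.00572). The call was lost in 7 of the 20 fits that left out 1 library, among them those without female head 3 (1.39, adjusted p = 0.0871) and without female pedicel 1 (1.41, adjusted p = 0.0783). In males the log2 fold between the tissues was 0.63 (SE 0.56, adjusted p = 0.396, with 33.4% of genes called). Between the sexes, male over female, the pedicel gave -1.27 (SE 0.52, adjusted p = 0.0878, with 22.9% called) and the head gave -0.32 (SE 0.55, adjusted p = 0.87, with 4.31% called).

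Of the 3 genes that passed the filter, the receptor gene DOP2 was the 1 called higher in pedicels than in heads, and the call was made in males. Male pedicels 1 to 5 gave 25, 15, 62, 74 and 45 counts, or 2.91, 1.56, 10.7, 23.6 and 5.07 CPM. Female pedicels gave 11, 2, 23, 10 and 16 counts, or 1.55, 0.368, 5.32, 2.23 and 4.09 CPM. Male pedicels 3 and 4 stood above all other libraries, and the rest of the male pedicels lay within the range of the female ones.

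Heads held less of it. Male heads gave 13, 19, 11, 11 and 11 counts, or 1.64, 3.21, 1.5, 1.47 and 0.967 CPM. Female heads gave 2, 7, 10, 11 and 2 counts, or 0.229, 0.905, 1.13, 1.29 and 0.255 CPM. The means fell in the order male pedicel (8.79 ± 9.01 CPM), female pedicel (2.71 ± 1.99), male head (1.76 ± 0.852) and female head (0.761 ± 0.493; SD, n = 5 each), with overlap between all neighbours in that order.

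In males DOP2 was 4.84-fold higher in the pedicel than in the head (log2 fold 2.28, SE 0.68, edgeR adjusted p = 0.00863). The log2 fold was 1.51 without male pedicel 4 (adjusted p = 0.0449). It was 1.49 with limma-voom, which did not call it (adjusted p = 0.0685). In females the log2 fold was 1.76 (SE 0.75, adjusted p = 0.0761), which DESeq2 called (1.77, adjusted p = 0.0379). Leaving out female pedicel 2 or male pedicel 2 or 4 also gave a call in females, with adjusted p-values from 0.0432 to 0.0495. The interaction was 0.52 (SE 1.04, adjusted p = 0.808), so the sexes were not shown to differ in this respect.

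Male over female, the log2 fold of DOP2 was 1.66 in the pedicel (SE 0.67, 95% interval 0.35 to 2.98, edgeR adjusted p = 0.0564) and 1.15 in the head (SE 0.75, 95% interval -0.32 to 2.62, adjusted p = 0.406). In the head none of the 3 tested genes was called, where 7.86% of all genes were. The pedicel value fell to 0.91 without male pedicel 4 (adjusted p = 0.256). It passed the threshold with DESeq2 (1.73, adjusted p = 0.0277), with library totals (1.68, adjusted p = 0.0158), with TMM factors that ignore the 20 most abundant genes (1.73, adjusted p = 0.0473) and without male pedicel 1 or 2 or female pedicel 3 (1.90 to 2.07). No interaction was called for the 3 tested genes, against 11.9% of all genes.

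DOP2 was highest in male pedicel libraries rich in identical copies, but its level did not follow the copies in every library. Male pedicels 3 and 4, its highest libraries, held 21.9% and 35.2% of their counts in identical copies, against 2.17% to 4.54% in the other male pedicels. Female pedicels 3 and 5, at 24.5% and 21.3%, were above female pedicels 1 and 2 in DOP2 with and without TMM, and female pedicel 4, at 26.2%, only with it. Male pedicels 1, 2 and 5 gave a log2 fold over male heads of 0.85 (edgeR adjusted p = 0.196), and male pedicels 3 and 4 gave 3.3 (adjusted p = 0.00031), which restates their levels and is no separate test. Without TMM, as CPM of the library total, male pedicels 1 to 5 held 3.56, 1.98, 8.80, 11.6 and 6.64 CPM and female pedicels 1.59, 0.302, 3.90, 1.44 and 2.98 CPM, with male pedicels 3 and 4 still the highest and female pedicel 4 below female pedicel 1. Head transcripts were high in male pedicel 2, the male pedicel with least DOP2, and what part they or the identical copies have in its level was not tested.

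**Figure D5:**
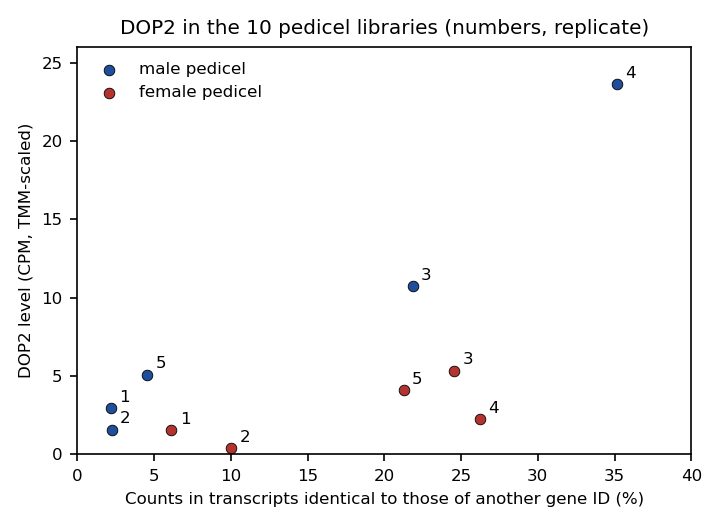
DOP2 level (CPM, TMM-scaled) in the 10 pedicel libraries against the percentage of counts in transcripts identical to those of another gene ID, with replicate numbers beside the points. Male pedicels 3 and 4, at 10.7 and 23.6 CPM, are the highest libraries and lie at 21.9% and 35.2%.

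Ratios within a library set DOP2 against the enzyme that makes its ligand. Per Ddc count, pedicels gave 0.0427 to 0.974 DOP2 counts in males (median 0.161) and 0.00962 to 0.138 in females (median 0.0621). Heads gave 0.0252 to 0.0693 in males (median 0.0373) and 0.005 to 0.0313 in females (median 0.0180). In the order given, each group overlapped with the next. After removal of group means, DOP2 correlated over the 20 libraries at a Pearson r of -0.43 with Ddc and -0.47 with ebony, again as a description over values that share their scaling.

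Other genes followed the same patterns over the 20 libraries. Likeness was measured as the Pearson correlation of log2 CPM with 6449 or 6450 genes of at least 10 CPM on average, and the IDs carry no name here. Ddc was most like AAEL004436 (r = 0.97, with means of 24.3 and 35.2 CPM in male and female pedicels and 34.1 and 39.3 CPM in male and female heads) and AAEL004733 (r = 0.93). Ebony was most like AAEL008502 (r = 0.96, with 54.3, 71.2, 99.2 and 105 CPM in the same order) and AAEL020998 (r = 0.95). DOP2 was most like AAEL024357 and AAEL000263, both at r = 0.89, of which AAEL000263 averaged 29.6, 14.8, 11.6 and 4.71 CPM. Yellow, at its few counts, was most like AAEL005023 (r = 0.81) and AAEL008582 (r = 0.78).

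Over the 3 tested genes, the median log2 fold, male over female, was -0.31 for pedicels and -0.05 for heads. It was -0.37 for pedicel over head in males and -0.12 in females. Each of these medians is the fold of a single gene, ebony between the sexes and Ddc between the tissues. DOP2 lay above 0 in each comparison, so they describe no shift of the set. Over all 11381 genes the median was -0.02, 0.03, 0.10 and 0.08 in the same order of comparisons. The median size of a fold, signs ignored, was 0.48, 0.23, 0.56 and 0.42. The folds of Ddc were smaller than this median size in each of the 4 comparisons, and those of DOP2, a gene of few counts, were larger in each.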

How the data were processed

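The authors deposited 1 table of unscaled estimated counts, with transcripts as lines and libraries as columns. Per the submitters' processing notes, FastQC, HISAT2 and featureCounts were used. Which tool gave the fractional values, and on which build and annotation, is not stated there. Columns were matched through the sample descriptions, and 0 columns were left unused. Of the 19804 gene IDs, 0 matched the RefSeq gene table, so no pathway or marker list could be named and no sequence is shown. The genes, lists and tests were chosen with earlier results of these data known, and further IDs were named by their correlation with the genes. Counts were summed per gene and rounded. After edgeR's filterByExpr (11381 genes kept), 1 quasi-likelihood fit of all 20 libraries with a mean per group was made (edgeR 4.0.16, R 4.3.3), with Benjamini-Hochberg adjustment over all genes of a contrast and calls at an adjusted p under 0.05. Standard errors are the absolute log2 fold over the square root of F. Transcripts were tested singly in the same way (added after the data were seen) and for usage with diffSpliceDGE (11544 transcripts). Alternatives were other scalings and filters, DESeq2 1.42.0, limma-voom (limma 3.58.1), subsets of libraries, each library left out and the replicate block. The estimated split of counts between transcripts of 1 gene adds error that the fits do not model.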

Additional observations from a re-analysis of the deposited data

Results flagged for a closer look

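In 5 of the 44 groups of 5 libraries examined, the highest library stood apart by more than Dixon's 95% limit for the gap over the range (0.71). Chance flags about 1 in 20 groups of independent normal values. The groups here share genes through shares and ratios, so that rate need not hold. Yellow reached 1.29 CPM in female head 2 (gap 0.733 of the range), on 10 counts. The share of AAEL014238-RC in Ddc was 75.3% in female head 2 (gap 0.781), against 45.1% to 51.7% in the other female heads. It was 37.6% in male pedicel 2 (gap 0.823), the male pedicel with the most head transcripts. AAEL014238-RE held 10.1% of Ddc counts in female head 5 (gap 0.999) and 6.31% in male head 4 (gap 1), where the other heads had under 1 estimated count of it.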

How the results depend on the processing

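Yellow and DOP2 rest on 1 to 15 and 2 to 74 counts per library, which limits what can be said of them. Library totals alone moved the median of all genes by 0.36 between the sexes in the pedicel, 0.07 in the head and 0.29 in the interaction, and with it gave log2 folds of opposite sign for Ddc in the pedicel between the sexes (0.0155) and in the interaction (0.0735), and for ebony between the sexes in the pedicel (0.12), in the head (0.0211) and in the interaction (0.10). They also took the call from Ddc in males (-0.53) and gave DOP2 one between male and female pedicels (1.68), as did DESeq2 (1.73) and TMM without the 20 most abundant genes (1.73). DESeq2 called DOP2 in females (1.77), and limma-voom lost it in males (1.49). A fit of the groups compared lost Ddc between pedicels (-0.40). With the pedicels at 10% or less of identical copies, calls were lost for Ddc between pedicels (-0.46) and in males (-0.27), DOP2 in males (0.85) and ebony in females (-0.44), and signs turned for Ddc in females (0.0822) and the interaction of DOP2 (-0.12). The pedicels above 10% added calls for ebony (-0.60) and DOP2 (2.49) between pedicels and DOP2 in females (1.92). The first subset holds 1 female pedicel, since female pedicel 2, at 10.015%, lay just past the cut. The spread of that group is borrowed from the other groups. The subset's lost calls and turned signs in females, between pedicels and in the interaction therefore rest on 1 library. The causes of the other changes were not tested.

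The replicate block gave ebony a call between pedicels (log2 fold -0.32, adjusted p = 0.0411) and changed no other call on Ddc, ebony or DOP2. Same-numbered libraries correlated in their deviations from group means at -0.09 to 0.41, and at 0.07 to 0.38 between male and female pedicels. Not every pair was over 0.1, and the main fit does not take the numbers as pairs. Libraries of different numbers were not compared in this way, so whether a number marks something shared was not tested. With the block, more genes were called in every comparison, such as 5048 sex differences in the pedicel (4501 as reported) and 1990 interactions (1352).

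With 1 library left out, log2 folds between pedicels ran from -0.45 to -0.30 for Ddc, -0.44 to -0.21 for ebony and 0.91 to 2.07 for DOP2. In females, DOP2 ran from 1.35 to 2.05, and its interaction from -0.22 to 0.92. Ebony in the head between the sexes ran from -0.0898 to 0.0298. All Ddc, ebony and DOP2 calls in males, and that of ebony in females, were kept in these 20 fits.

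Of the counts over all genes, library totals gave 571 sex differences in the head (894 as reported) and 426 interactions (1352), and a fit of heads alone gave 1497. With pedicels at 10% or less, 1546 sex differences in the pedicel (4501), 946 tissue differences in females (4028) and 183 interactions were called. With 1 library left out, interactions ran from 911 to 2694, the highest without male pedicel 2.

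Of single transcripts, AAEL014238-RE in the head between the sexes was at 0.85 with the replicate block (-0.84 as reported), and AAEL005793-RA in females at -0.0895 with library totals (0.41). With 1 library left out, AAEL005793-RB between the sexes in the head ran from -0.0411 to 0.109, AAEL014238-RD between female tissues from -0.27 to 0.15, and AAEL014238-RE from -5.71 to 4.87 between heads and from -6.13 to 4.45 in the interaction. No call was made in any of these. DOP2 did not pass the filter in the fit of female libraries alone, which gave no value.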
